A study of Mus musculus with 4 samples.

Results

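The proximal part of mouse chromosome 7, from 3 to 24 Mb on mm9, was examined in a map of MBD1 in the dentate gyrus. A peak was a member when it lay on chromosome 7 with its midpoint inside these 21 Mb, which gave 240 of the 37778 peaks of the list. Members were then split at a mean input of 3 reads per bin, and a stretch of equal length on the same chromosome, from 50 to 71 Mb with 426 peaks, served as the comparison. The tissue was dentate gyrus of C57BL6 mice around 9 weeks old from a FLAG tagged-Mbd1 mouse line. The 2 ChIP libraries were made with anti-FLAG antibody and the 2 input libraries with none, and both kinds came from the tagged line. No ChIP from untagged animals is among the 4 libraries, and the labels do not say which or how many animals each library came from, nor what drives the tagged gene. The list pools the libraries, so no difference below could be set against replicate error. Intervals describe counting error or how values spread over peaks, and no p-value for a difference is given.

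MBD1 is a nuclear protein that binds methylated CpG through its MBD domain and recruits repressive chromatin factors. Vomeronasal type 1 receptors are G protein-coupled receptors by which sensory neurons of the vomeronasal organ detect pheromones, and their genes stand in clusters that grew by tandem duplication. KRAB zinc-finger genes also stand in tandem clusters; they encode DNA-binding repressors, many of which silence transposable elements through the corepressor TRIM28.

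In RefSeq's gene table for GRCm38.p6, 126 of the 230 protein-coding genes with a Vmn1r symbol were on chromosome 7. The same chromosome held 52 of 123 Vmn2r genes, the type 2 receptors, and 93 of 397 genes with a Zfp symbol. It also held 239 of 1110 genes with an Olfr symbol. These counts cover the whole chromosome and go by symbol start, so the Zfp count is not limited to KRAB genes. Between Nlrp9b and Nlrp4e, 70 of the 85 protein-coding genes in the table's order were Vmn1r genes. The table is of another build than the peaks, so no gene was assigned to a peak, and whether the gene clusters coincide with the stretches described here on mm9 was not tested.

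Peaks occupied the region in a few blocks separated by wide empty stretches. The 240 members came to 11.4 per Mb and covered 1.33 Mb, or 6.36% of the region. In 1 Mb windows the number ran from 0 to 39 with a median of 6. The window from 12 to 13 Mb was the fullest, with 39 peaks over 26.9% of its bases, followed by 14 to 15 Mb with 38 peaks over 18.4% and 5 to 6 Mb with 30 peaks over 16.5%. The 8 windows with 16 or more peaks together held 200 members, or 83.3%. At 50 to 71 Mb the share was similar, with 360 peaks, or 84.5%, in 11 such windows.

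The 5 Mb from 10 to 15 Mb formed the main block, with 131 members (54.6%) at 26.2 per Mb. All 131 had input of 3 reads per bin or more. From 3 to 8 Mb there were 54 members, of which 30 fell in the single window from 5 to 6 Mb. The windows at 3 to 4 and 4 to 5 Mb held 3 and 6 peaks, that at 6 to 7 Mb held 13 and that at 7 to 8 Mb held 2. Beyond the main block, 15 to 16 Mb held 16 members, 16 to 17 Mb held 6 and 17 to 18 Mb held 5. A last group of 23 lay from 18 to 19 Mb, and 19 to 20 and 20 to 21 Mb held 3 and 2.

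No peak was listed in 5 of the 21 windows, those from 8 to 10 Mb and from 21 to 24 Mb. The empty stretch from 7124413 to 10718026 measured 3.59 Mb and that from 20636277 to 24126335 measured 3.49 Mb. They ranked 3 and 4 by length among the 37618 distances between neighbouring autosomal peaks, of which 6 were over 3 Mb. The list has no value outside peaks, so the reads in these stretches were not analysed here. Over all 239 distances between neighbouring members, the empty stretch of 3.59 Mb included, the median was 12841 bp (95% interval 10217 to 14952). Of these distances 42.7% were under 10 kb (36.3 to 49.2%). At 50 to 71 Mb the median distance was 18334 bp (15294 to 21767) and 34.8% were under 10 kb (30.3 to 39.6%).

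The comparison with 50 to 71 Mb asks whether the proximal region differs from another 21 Mb of the same chromosome. It had 0.563 times as many peaks (exact 95% counting interval 0.479 to 0.661) and 0.504 times as many (0.425 to 0.595) when only peaks with input of 3 or more were counted. Every 1 Mb window of the comparison region held a peak, from 1 to 48 with a median of 16. Without the 5 empty windows, a setting added after seeing the data, the ratio of densities was 0.739 (0.629 to 0.868). Against the rest of chromosome 7 the density was almost equal, at 0.989 times (0.859 to 1.13), while against 3 to 24 Mb of the other 18 autosomes it was 0.649 times (0.568 to 0.738). The size of the difference, and whether there was one, thus depended on what the region was compared with.

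**Figure D1:**
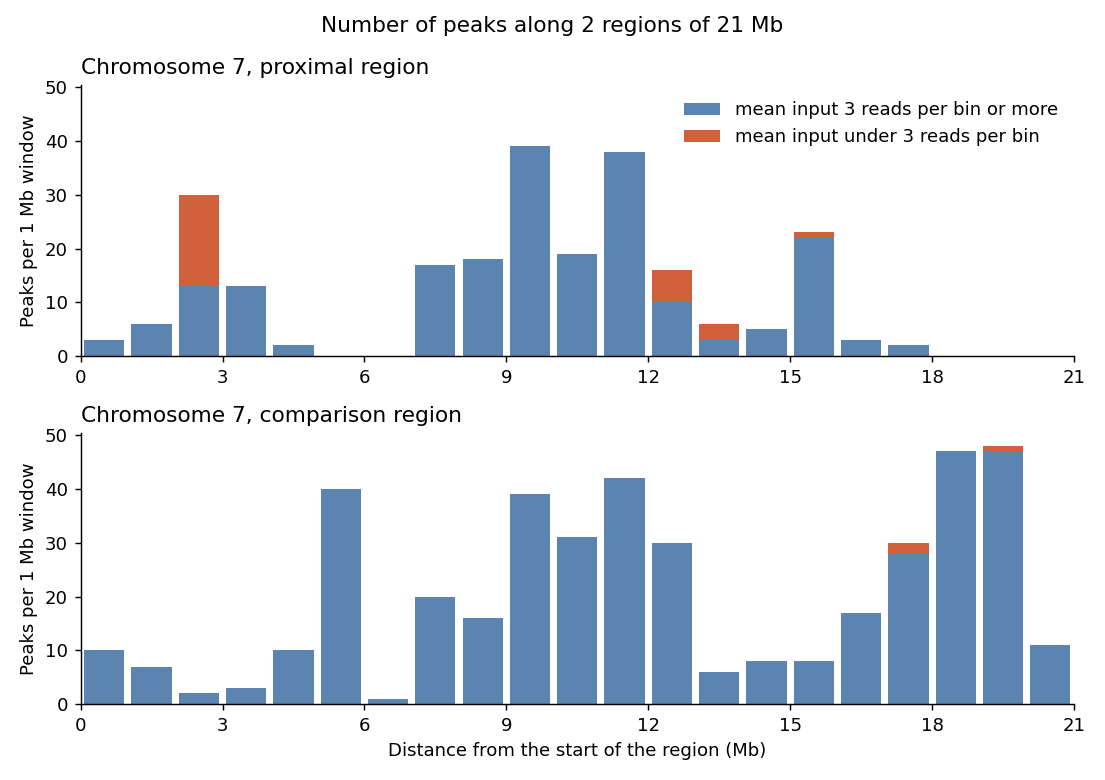
Number of peaks (vertical axis) in each 1 Mb window against the distance from the start of the region (horizontal axis, Mb), for the proximal region of chromosome 7 (top) and the comparison region (bottom). Blue bars count peaks with a mean input of 3 reads per bin or more and red bars those below; 5 windows of the proximal region are empty, and 27 of its peaks are red against 3 in the comparison region.

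Members with a mean input under 3 reads per bin numbered 27 of 240, or 11.2% (exact 95% interval 7.55 to 15.9%). In the whole list this class made up 1.09% of peaks, and at 50 to 71 Mb it was 3 of 426, or 0.704% (0.145 to 2.04%). No input read at all was recorded in 23 members, which is 9.58% of the 240 against 0.307% of the whole list, and 85.2% of the 27 against 28.1% of all listed peaks under the border. The proximal region thus held 0.638% of autosomal peaks and 21.3% of the 108 autosomal peaks without an input read. The rest of chromosome 7 held 7 peaks under the border, and none of its 1475 peaks was without input, which allows a share of up to 0.203% (3 peaks of that total). This contrast was known in part when the region was chosen, so it is a description.

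Of the 27, 26 stood in 2 runs, a run being a series of neighbouring peaks that all lie under the border. The one with more peaks, 17 from 5616237 to 5778412, had the most peaks of any run in the list, though not the widest span, and was the only one of its 14 runs of 5 or more peaks in which no peak had an input read. It spanned 162 kb, and its peaks, 911 to 20910 bp wide, covered 71.9% of that span. Mean ChIP over the 17 peaks ran from 34.1 to 51.8 reads per bin with a median of 40.8. The highest bin held 45 to 98 reads, depending on the peak. All 17 carried the authors' quality flag, as did every peak in all 14 runs of 5 or more; of all listed peaks under the border 83.5% carried it.

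A peak next to a run has input of 3 or more by definition. The peak before it, from 5591353 to 5594152 and 22.1 kb away, had 60.9 ChIP and 12.6 input reads per bin. The peak after it, from 5828600 to 5831388 and 50.2 kb away, had 53.5 ChIP and 10.7 input reads. Their ChIP counts lay above that of every peak in the run. Places with such input and low ChIP are not listed as peaks, which by itself favours this order. Summed over the 596 bins inferred for the run, ChIP gave 25838 reads and input 0. At the median input of the other members, 11.8 reads per bin, the same bins would hold 7061 input reads.

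Widest in the run was the peak from 5690542 to 5711451, with 46.3 ChIP reads per bin and a deposited log2 ratio of 5.50. Its bound was at least 676-fold over input (floor of 3 input counts per peak, after the authors' scaling). The bound takes the absence of input as counting error alone. The highest mean ChIP in the run was 51.8 reads per bin, from 5621023 to 5622087, followed by 50.6 from 5662159 to 5667924. The wide peaks from 5629903 to 5646708, from 5674433 to 5689972 and from 5763341 to 5778412 had 45.8, 45.4 and 43.0 reads per bin. These values differ little, and the largest bounds on the fold belong to the widest peaks, because a bound grows with the number of bins.

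The other run, 9 peaks from 15857167 to 16276242, was sparser. Its peaks covered 2.84% of 419 kb and were 648 to 2728 bp wide. Its first 8 peaks lay within 147 kb, and the ninth, from 16275442 to 16276242, followed 272 kb further on. Mean ChIP ran from 36.0 to 52.5 reads per bin, and input was 0 in 6 peaks and at most 2.0 in the others. The run held 19 input reads in all, of which 10 fell in the ninth peak, 9.96-fold after scaling (95% counting interval 5.32 to 21.04). The peak with the highest ChIP of the 27 members was here, from 15999800 to 16000495, with 52.5 reads per bin and no input read, at least 28.9-fold. The peaks next to the run, 662 kb before and 152 kb after it, had ordinary input of 14.7 and 15.1 reads per bin. The remaining member of the class stood alone from 18014100 to 18015330, with 43.0 ChIP and 2.0 input reads per bin, 8.89-fold (5.0 to 17.4), and was the only one of the 27 without the quality flag.

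**Figure D2:**
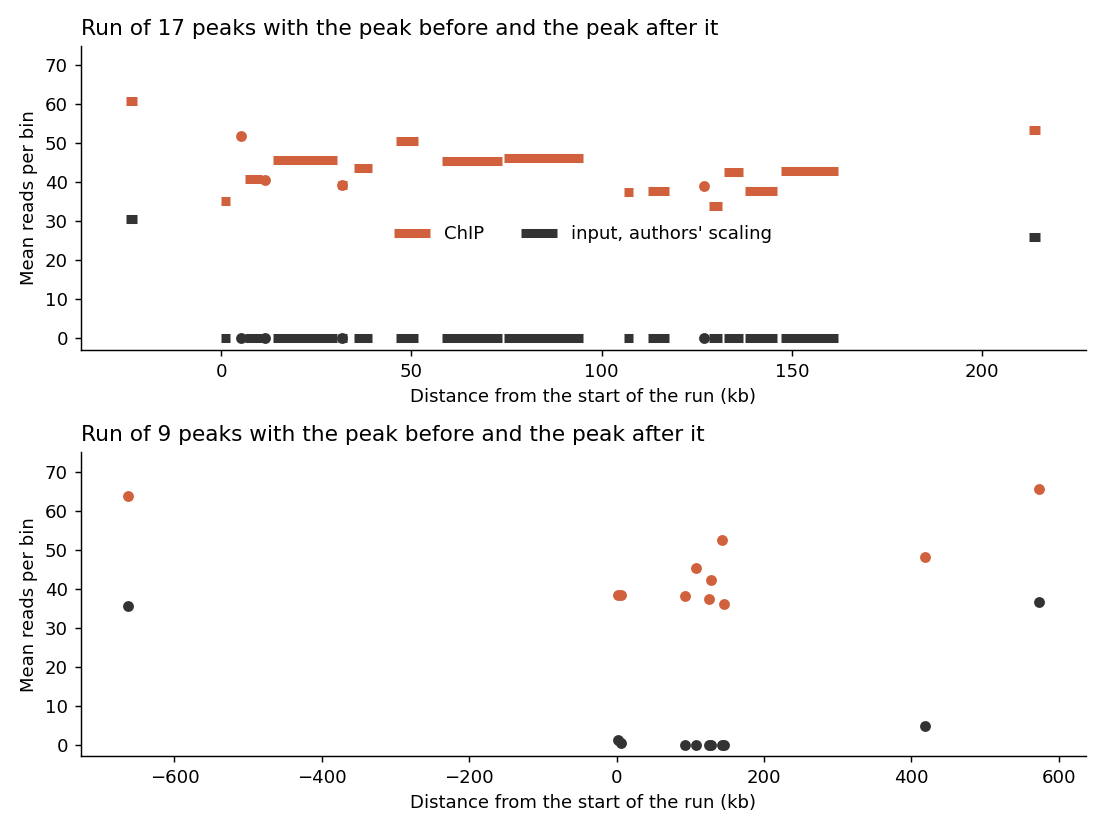
Mean reads per bin (vertical axis) of ChIP (red) and of input after the authors' scaling (black) against distance from the start of the run (horizontal axis, kb), for the runs of 17 peaks (top) and 9 peaks (bottom), each with 1 neighbouring peak on either side. Bars span the width of a peak and dots mark peaks too narrow to show; input is 0 in every peak of the run of 17, while ChIP stays between 34.1 and 51.8.

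ChIP counts were lower in these 27 peaks than in other members. Their median was 40.8 reads per bin (95% interval 38.1 to 45.2), against 59.4 (58.7 to 60.2) in the 213 members with input of 3 or more. In 19 of the 27, ChIP was below 44.3, the lowest value among the 213. In 198 of the 213 it was above 52.5, the highest among the 27. No peak of the whole list had a log2 ratio below 0.585, and none with input of 10 or more had ChIP below 44.1. Peaks with ordinary input and low ChIP were therefore largely missing from the list. The split by input thus by itself favours lower ChIP in the 27, and the difference cannot show weaker binding there. Across the 213 members ChIP and input rose together (Pearson's r 0.68, Spearman's rho 0.56), a description over peaks that share the same libraries. At 50 to 71 Mb r was 0.65 and rho 0.62. Places with high input and low ChIP are not listed as peaks, which by itself favours such a correlation. Counted as ChIP minus scaled input, the order turned, with a median of 40.6 reads per bin (37.8 to 43.6) in the 27 and 30.4 (29.1 to 31.9) in the 213. This measure subtracts the input by which the classes were split, so it cannot show a stronger signal in the 27. In the whole list the order was the same, with medians of 45.5 under the border and 30.4 above it. The autosomal peaks under the border had a median ChIP of 47.3 (46.2 to 48.2), above that of the 27.

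The deposited log2 ratios of the 27, from 3.24 to 5.70 with a median of 5.27, mostly restate the ChIP count. In the 23 members without input, the ratio differed from log2 of mean ChIP plus 1 by -0.13 to -0.02. Nearest below the border of 3 were the lone peak from 18014100 and the ninth peak of the run of 9, both at 2.0 input reads with ratios of 3.24 and 3.71. Nearest above it were peaks from 14454608 to 14455504 with 3.60 input reads and a ratio of 2.78, and from 12632135 to 12634919 with 5.13 and 1.95. Members with input from 3 to under 6 numbered 5, so the border lay in a thin part of the distribution.

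**Figure D3:**
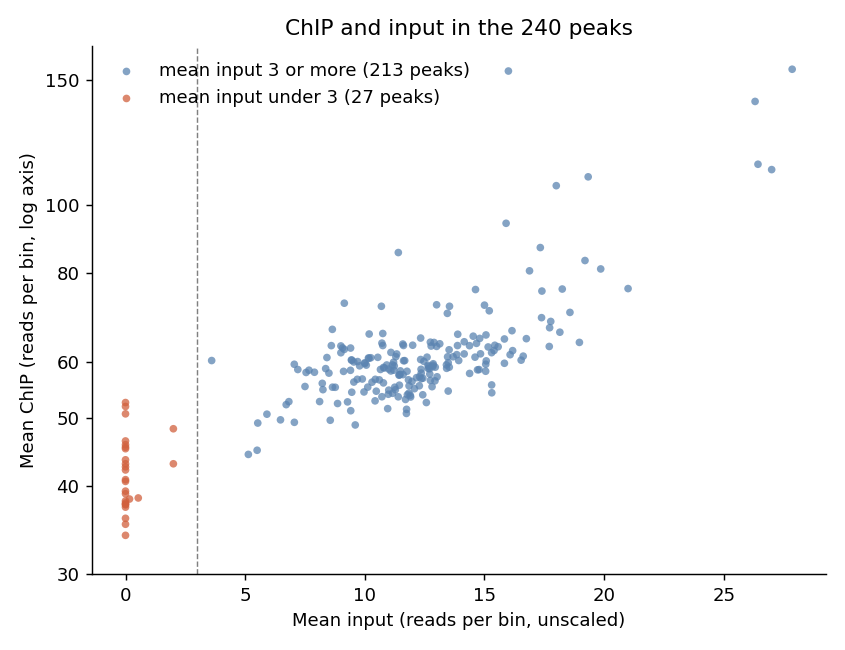
Mean ChIP (vertical axis, reads per bin, log axis) against mean unscaled input (horizontal axis, reads per bin) for each of the 240 members; the dashed line marks an input of 3. The 27 members under it (red) lie between 34.1 and 52.5 ChIP reads, and the 213 others (blue) between 44.3 and 155.6.

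The 213 members with ordinary input were mostly shallow in enrichment. At 1.15 (95% interval 1.09 to 1.20), their median log2 ratio was low, and the quartiles were 0.98 and 1.43. The median was 1.15 (1.10 to 1.19) at 50 to 71 Mb, 1.16 (1.13 to 1.18) on the rest of chromosome 7 and 1.20 (1.19 to 1.20) on all autosomes. No ratio among the 213 was above 3, and 4 (1.88%) were above 2, against 4.96% at 50 to 71 Mb and 6.57% on the autosomes. Their median ChIP, 59.4 reads per bin, lay slightly above the 57.8 (57.3 to 58.4) at 50 to 71 Mb, and their median input of 11.8 (11.4 to 12.4) was close to the 11.9 (11.6 to 12.3) there.

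The largest ratio at ordinary input was at 14454608 to 14455504, a narrow peak of 897 bp with 60.2 ChIP reads per bin over 18 input counts in all, 6.91-fold from summed counts (4.30 to 11.8). It was followed by 15070215 to 15072332 with a log2 ratio of 2.21 and 5841606 to 5844714 with 2.17. The latter was the second peak beyond the end of the run of 17 and had 44.9 ChIP and 5.50 input reads per bin. The 10 largest ratios ran from 1.87 to 2.78. In 8 of these 10 peaks ChIP was at or below 62.4 reads per bin, so they stood out by low input more than by ChIP. The exceptions were 6715400 to 6716382, with 85.6 ChIP reads, and 17673622 to 17674799, with 154.7 ChIP reads over 16 of input, 4.0-fold (3.24 to 4.98).

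Members were wide, and the widest lay in the main block. The median width at ordinary input was 4006 bp (3586 to 5143), against 3811 (3528 to 4369) at 50 to 71 Mb and 3108.5 (3072 to 3141) on the autosomes. The widest member, 35998 bp from 11107331 to 11143328, had 56.5 ChIP and 11.8 input reads per bin, 1.98-fold (1.89 to 2.07). The next were 24800 bp from 10841800 to 10866599, 2.27-fold (2.14 to 2.41), and 23795 bp from 12764405 to 12788199, 1.84-fold (1.74 to 1.94). In the block from 10 to 15 Mb the median width was 4790 bp (3975 to 6061). It was 2091 bp (1688 to 2800) in the 37 members with ordinary input from 3 to 8 Mb. The 17 peaks of the run there, left out of this value, had a median width of 4667 bp. Both stretches were set after seeing the counts. At ordinary input the median log2 ratio was 1.19 (1.13 to 1.28) in the block and 1.11 (1.01 to 1.25) from 3 to 8 Mb. Wider members had lower ratios (r -0.26, rho -0.28 over 213 peaks), as at 50 to 71 Mb (r -0.28, rho -0.33 over 423).

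The quality flag is the authors' own mark and its meaning is not stated in the labels or the header. It was carried by 113 of 240 members (47.1%), against 30.8% of the whole list. At ordinary input it was carried by 87 of 213, or 40.8% (34.2 to 47.8%), where the whole list had 30.3%, the comparison region 31.4% (27.04 to 36.1%) and the rest of chromosome 7 39.2% (36.7 to 41.7%). The flagged share was therefore close to that of the rest of the chromosome. Among the 144 members wider than the list's median of 3085 bp it was 45.8% (37.5 to 54.3%), and among the 69 others 30.4% (19.9 to 42.7%), with overlapping intervals. In the whole list the shares in these width classes were 30.6% and 29.9%, and on the rest of chromosome 7 they were 38.9% and 39.5%. The deposited −log10 of the mean p over a peak's bins was also used, and members with a mean p no higher than 0.05 are called strict here. How that p was computed is not stated. Strict members numbered 35 (14.6%), against 3.17% of the list. Of these 35, 20 were members with input under 3. That was 74.1% of the 27 (53.7 to 88.9%), against 52.1% of all listed peaks under the border.

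At ordinary input strict members numbered 15, or 7.04% (3.99 to 11.3%), where the whole list had 2.63%. The comparison region had 8 of 423, or 1.89% (0.820 to 3.69%). The rest of chromosome 7 had 54 of 1468, or 3.68% (2.78 to 4.77%), an interval that overlaps that of the members. Of the 15, 12 lay between 10 and 15 Mb, where they made up 9.16% (4.82 to 15.5%) of 131; elsewhere in the region the share was 3.66% (0.761 to 10.3%). Of the 15, 14 were wider than the list's median, such as 10841800 to 10866599 with 58.5 ChIP and 10.7 input reads per bin. The exception, from 10809226 to 10812051, was 2826 bp wide and 3.36-fold over input (2.75 to 4.14). Among members over the list's median width 9.72% (5.42 to 15.8%) were strict, against 3.38% of such peaks in the whole list, 3.78% (2.58 to 5.32%) on the rest of chromosome 7 and 1.56% (0.426 to 3.94%) at 50 to 71 Mb. In strict peaks of any input the proximal region exceeded the comparison, 35 to 8, which is the opposite order to that of all peaks. At ordinary input this ratio was 1.88 with a counting interval of 0.746 to 5.11, which includes 1.

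The interval from 3 to 24 Mb was also read on the other 18 autosomes, since it is near the centromeric end of each. With 240 peaks chromosome 7 ranked 16 of 19, where the others ran from 105 to 669 with a median of 340.5. Its share of peaks with input under 3 was the highest of the 19. The next were chromosome 17, with 20 of 365 (5.48%), and chromosome 8, with 13 of 309 (4.21%), and the median of the other 18 was 0.561%. Without the run of 17 peaks the share on chromosome 7 was 4.48% (2.17 to 8.09%), below the 5.48% of chromosome 17. With the run of most such peaks left out on each of the 19 autosomes, a setting added after seeing the data, chromosome 7 again ranked first, ahead of chromosome 8 at 2.95% (1.36 to 5.53%) and chromosome 17 at 2.82% (1.36 to 5.12%). Peaks without input were found in this interval on chromosomes 7 (23), 17 (17) and 8 (5) and on none of the other 16. At ordinary input the median width on chromosome 7, 4006 bp, was the largest of the 19 (others 2047 to 3878), while its median log2 ratio ranked 11. Its strict share at ordinary input, 7.04%, ranked 1, ahead of chromosome 17 (6.09%) and chromosome 8 (4.05%). Its flagged share, 40.8%, ranked 2, below the 45.5% of chromosome 17.

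**Figure D4:**
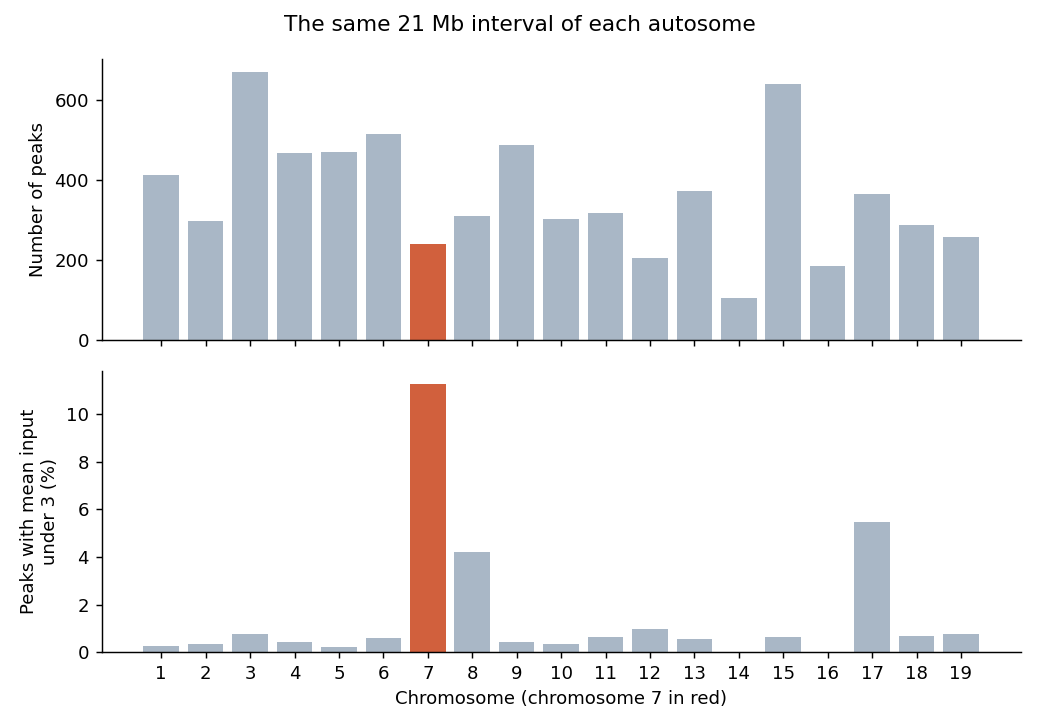
Number of peaks (top) and percentage of peaks with a mean input under 3 reads per bin (bottom) in the interval from 3 to 24 Mb of each of the 19 autosomes (horizontal axis), with chromosome 7 in red. Chromosome 7 has 240 peaks and the highest percentage, 11.2%, followed by chromosome 17 with 5.48%.

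Long runs of such peaks also occurred on other chromosomes. In the same interval of chromosome 17, 10 peaks from 7941430 to 8134788, 9 of them without input, had a median of 48.1 ChIP reads per bin and covered 89.7% of their span. A further 9 peaks there, from 5810309 to 5927984, had a median of 48.2, with 7 peaks lacking input and 89.4% covered. Further along, a run of 15 peaks from 54085100 to 54244916 on chromosome 17 had a median of 51.2 ChIP reads per bin and 14 peaks without input. Another of 15 from 127513895 to 127690399 on chromosome 8 had 48.0 reads and 12 without input. Peaks covered 86.4% and 92.2% of these spans, against 71.9% in the run of 17 on chromosome 7. Over all 14 runs of 5 or more peaks in the list, coverage ranged from 0.522% to 92.8%. Why input was low or absent in these runs was not tested.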

How the data were processed

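ChIP DNA (2 libraries) and input DNA (2 libraries) were sequenced as single 100 bp reads from libraries of about 350 bp, per the labels' protocols. The submitters' processing notes name Bowtie 0.12.7 and the build mm9; no source used here names the peak caller or its settings. The deposited list gives, per the file headers, mean ChIP and input signal as reads per bin, the highest ChIP count of a bin and the summit pile-up count, a mean log2 ratio, −log10 p values and a quality flag; these are the authors' values. The authors' scaled input was input times 2.42 in every peak with an input read. The list pools the libraries, so depth per library is unknown, reads are not independent molecules, and intervals and floors cover counting error only.

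The members, their border of 3 input reads, the comparison region and the peaks named were chosen with earlier results of these data known. Peaks were named by rule: the 10 highest ChIP values under the border, the 10 largest log2 ratios above it, the 3 widest, the 2 nearest to the border on either side, the ends of runs of 3 or more, and the fullest and emptiest windows (with ties). Stretches of several windows (3 to 8, 10 to 15 Mb) were set after seeing the counts. The number of bins in a peak was inferred as the number nearest to width over 200 bp that made both sums whole (tolerance 1e-06 reads); it lay within 1 of that in 75.4% of members. Folds divide summed ChIP by scaled summed input, with exact binomial 95% intervals, or use a floor of 3 counts where input was 0. Medians have order-statistic intervals and shares exact Clopper-Pearson intervals; for a share of 0 the limit is that of 3 counts of the total. Tests across samples and sequences of mm9 were not applicable or not used here. Calculations were tested on simulated data. Software was scipy 1.17.1, numpy 2.4.6 and pandas 2.3.3 under Python 3.11.15, with matplotlib 3.10.9 for figures.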

Additional observations from a re-analysis of the deposited data

How the results depend on the processing

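Of 44 alternatives over 10 results, 31 left the value within its interval or within 1.5 times the count, including membership by any overlap and other input borders. The ratio of peak number to 50 to 71 Mb turned from 0.563 to 4.38 for strict peaks, and was 0.850 with the quality flag, 0.989 against the rest of chromosome 7 and 0.739 without the empty windows; 20 of the 35 strict members had input under 3. The share of members under the border, 11.2%, was 57.1% among strict and 23.0% among flagged members, and 4.48% without the run of 17 peaks. Windows of 0.5 Mb left 38.1% empty, against 23.8%. The median log2 ratio at ordinary input was 1.01 recomputed from mean counts and 1.36 in strict members. The flagged share was 30.4% in narrower members, and the strict share 1.45% in narrower members and 3.66% without 10 to 15 Mb. The empty windows, the run of 17 and the splits by width and by 10 to 15 Mb were added after seeing the data; the cause of these shifts was not tested. No paired analysis was possible because ChIP and input libraries were pooled by the authors, and for that reason no replicate could be left out either.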

Other observations

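The 7 members with more than 100 ChIP reads per bin, chosen after their values were seen, lay outside the main block. They were narrow (869 to 2356 bp), and all 7 carried the quality flag, as did 98.2% of the 1469 listed peaks with that much ChIP and ordinary input. The highest ran from 4497405 to 4498799, at 155.6 reads per bin in ChIP and 27.9 in input, 2.31-fold (95% counting interval 1.98 to 2.70). From 16724090 to 16726445 ChIP was 140.1 over 26.3, 2.20-fold (1.96 to 2.48), and from 6206803 to 6208127 it was 114.1 over 26.4, 1.79-fold (1.52 to 2.11). High ChIP thus mostly came with high input, and the peak from 17673622 to 17674799, at 4.0-fold, had the largest ratio of the 7. Such peaks made up 3.29% of members with ordinary input, against 2.60% at 50 to 71 Mb and 3.85% on the autosomes.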
